A study of Rattus norvegicus with 10 samples.

Results

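Ccl2, Timp1 and Hmox1 were followed in rat cerebral cortex after a transient stroke, as 3 of the 26001 annotated transcripts in the mRNA table. Their rows carry the Ensembl identifiers ENSRNOT00000009448 (Ccl2), ENSRNOT00000013745 (Timp1) and ENSRNOT00000019192 (Hmox1). The tables hold identifiers only. The gene names were supplied together with the identifiers and could not be checked against the files. All 3 were chosen by their rise after stroke in these same libraries. The difference between the groups is therefore given as a description, and nothing is read from their calls in the test of all features.

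Male Sprague-Dawley rats, 8 to 9 weeks old and weighing 240 ± 20 g, gave the cortex. In the MCAO/R group (5 libraries, replicates 1 to 5) the middle cerebral artery was occluded for 2 h and blood flow was restored for 24 h. The sham group (5 libraries, replicates 6 to 10) is labelled only as sham, and the sources used here do not give its time after surgery. Total RNA was depleted of ribosomal RNA and sequenced with a directional kit. The labels do not say which side or depth of cortex was taken, or that each library is 1 animal, so the spread between libraries may be partly technical.

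Ccl2 encodes a chemokine that draws monocytes into tissue through the receptor Ccr2. Timp1 encodes a secreted inhibitor of matrix metalloproteinases, the enzymes that open the basement membrane of brain vessels after ischaemia. Hmox1 encodes the inducible haem oxygenase, which breaks haem down to biliverdin, iron and carbon monoxide and is a classical target of the transcription factor Nrf2. In injured brain these genes are known from reactive glia, vessel cells and invading myeloid cells. Which cells held them here was not measured, and in bulk cortex more cells of a type and more RNA per cell cannot be told apart.

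The RefSeq promoter table for rat build GRCr8 matched 1 of the 3 genes, Timp1. Its upstream window is shown because it is the regulatory DNA in hand for a gene of the set. It runs over the 250 bases before the start site, at chrX:3771123-3771372 on the minus strand, and is printed 5′ to 3′ toward the start site with the only motif match in capitals.
Timp1: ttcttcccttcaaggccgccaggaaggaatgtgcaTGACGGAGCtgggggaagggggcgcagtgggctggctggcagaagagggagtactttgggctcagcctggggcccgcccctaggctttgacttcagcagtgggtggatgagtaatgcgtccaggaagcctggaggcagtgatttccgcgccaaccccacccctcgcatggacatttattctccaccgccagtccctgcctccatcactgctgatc
The capitals, TGACGGAGC, match the letters of an antioxidant response element (TGACNNNGC) and lie 215 to 207 bases before the start site. Those letters, read on both strands, occur in 10.1% of the 33469 rat promoter windows of the same length. Also searched on both strands were the letters of a kB site (GGNNTTTCC, in 5.19% of windows), an AP-1 site (TGANTCA, 6.34%), a hypoxia response element (ACGTG, 16.6%), a STAT site (TTCNNNGAA, 7.67%) and a TATA box (TATAAA, 12.9%). None of these 5 was found in the Timp1 window, which says only that these letters, as written, are not in these 250 bases. Sites that differ from the letters by 1 base were not searched. The window holds tgagtaa, which is 1 base from TGANTCA. G and C made up 61.2% of the window, against a median of 51.2% over all windows.

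Levels are FPKM, the authors' fragment values scaled to transcript length and library total. The level of a gene is here that of 1 annotated transcript. Another 338223 entries are assembled isoforms, and whether any belong to these genes was not examined. Scaling to length allows levels of different genes to be set side by side. The annotated values did not sum alike, at 180179 to 195539 FPKM in MCAO/R and 128381 to 172480 in sham libraries, so differences between the groups depend in part on the scaling. Ccl2, the chemokine, was under 1 FPKM in every sham library and among the more abundant transcripts after MCAO/R. It stood at 231, 234, 22.3, 194 and 179 FPKM in MCAO/R replicates 1 to 5. In sham replicates 6 to 10 it stood at 0.279, 0.0673, 0.241, 0.697 and 0.457 FPKM. The groups did not overlap, and the lowest MCAO/R library, replicate 3, still held 32.0 times the highest sham library, replicate 9. Ranked by FPKM among the 26001 annotated transcripts of a library, Ccl2 lay between 8206 and 12847 in sham libraries. After MCAO/R it ranked 99, 85, 137 and 159 in replicates 1, 2, 4 and 5 and 1530 in replicate 3.

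Timp1, the protease inhibitor, was already measurable in every sham library and reached the highest level of the 3 genes. Its MCAO/R values were 223, 226, 47.1, 220 and 515 FPKM in replicates 1 to 5. Its sham values were 3.51, 2.19, 2.11, 3.02 and 1.29 FPKM in replicates 6 to 10. Here too the groups were apart, with replicate 3 lowest and replicate 5 highest after MCAO/R. Replicate 3 held 13.4 times the highest sham value. In replicate 5 Timp1 was the 26th most abundant annotated transcript and made up 0.263% of the annotated sum, against ranks of 94 to 109 in replicates 1, 2 and 4.

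Hmox1, the haem-degrading enzyme, had the steadiest baseline. In sham replicates 6 to 10 it stood at 2.06, 1.87, 1.39, 1.93 and 2.18 FPKM, a span of 1.57-fold between its lowest and highest library. After MCAO/R it stood at 133, 107, 34.7, 154 and 108 FPKM in replicates 1 to 5. No library of one group reached the other, and replicate 3 was again lowest, at 15.9 times the highest sham library. Its rank among annotated transcripts went from 5752 to 6801 in sham libraries to 188 to 294 in MCAO/R replicates 1, 2, 4 and 5 and 974 in replicate 3.

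**Figure D1:**
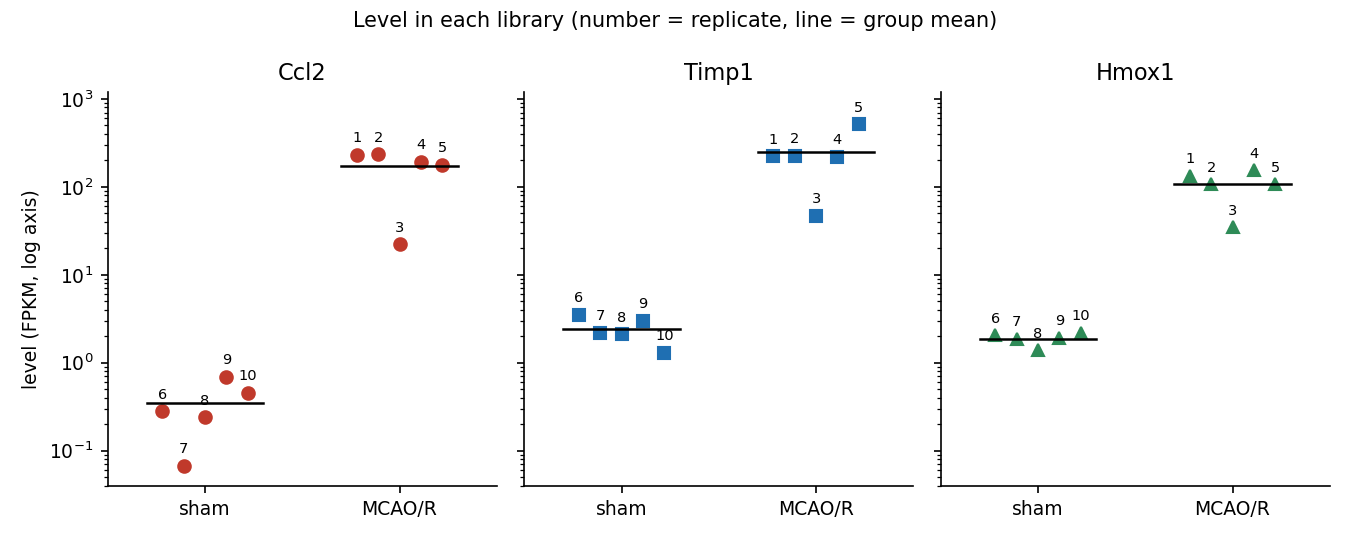
Level of Ccl2, Timp1 and Hmox1 in FPKM on a log axis, with 1 point per library, the replicate number above it and the arithmetic group mean as a line. MCAO/R libraries lie above all sham libraries for each gene, and MCAO/R replicate 3 is the lowest of its group at 22.3, 47.1 and 34.7 FPKM.

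As group means, Ccl2 was 172 ± 87.0 FPKM after MCAO/R and 0.348 ± 0.239 in sham cortex (SD, n = 5 each), a ratio of 494. Timp1 was 246 ± 169 and 2.42 ± 0.861 FPKM, a ratio of 102. Hmox1 was 107 ± 45.1 and 1.89 ± 0.301 FPKM, a ratio of 56.9. The SD after MCAO/R was 50.5% of the mean for Ccl2, 68.5% for Timp1 and 42.0% for Hmox1. Without MCAO/R replicate 3 these ratios of means were 602, 122 and 66.5.

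On the scale of log2(FPKM + 1), the difference between MCAO/R and sham was 6.66 with an SE of 0.57 for Ccl2, 5.87 with an SE of 0.51 for Timp1 and 5.08 with an SE of 0.34 for Hmox1. Ranked by this difference they stood at 1, 3 and 5 among 10105 annotated transcripts with a mean of at least 0.5 FPKM. Their median of 5.87 compares with a median difference of 0.20 over those 10105 and of 0.11 over all 25038 mRNA features tested, which include assembled loci. All 3 were called higher at an adjusted p under 0.05, as were 14.3% of all mRNA features and 17.8% of annotated transcripts. The background depended on the scaling between libraries: 3590 features were called higher as deposited, 2569 with equal sums over both tables, 2350 after quantile normalization and 2198 when scaled by annotated transcripts. Every MCAO/R library exceeded every sham library for 15.9% of annotated transcripts. Since the genes were chosen on this contrast, nothing is read from their calls. Adding 1 to a value weighs most on Ccl2, whose sham values are under 1, and with 0.1 added its log2 difference was 8.40.

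The order of the 3 genes was not the same in the groups. In sham cortex Timp1 was above Hmox1 in 4 of 5 libraries, with ratios of 0.592 (replicate 10) to 1.71, and their group values overlapped. Ccl2 was the lowest of the 3 in each sham library, at 0.0308 to 0.353 of Timp1. After MCAO/R Ccl2 had come level with Timp1 in replicates 1 and 2, at ratios of 1.03 and 1.04, and stood at 0.883 in replicate 4. It stayed below Timp1 in replicates 3 and 5, at 0.474 and 0.348. The sham and MCAO/R ranges of this ratio met, at 0.353 in sham replicate 10 and 0.348 in MCAO/R replicate 5.

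Against Hmox1, Ccl2 went from 0.0361 to 0.360 in sham libraries to 1.26 to 2.19 in MCAO/R replicates 1, 2, 4 and 5. In MCAO/R replicate 3 it was 0.642, so there Ccl2 was still the least abundant of the 3. Timp1 exceeded Hmox1 in all 5 MCAO/R libraries, by 1.35 to 2.11 in replicates 1 to 4 and by 4.79 in replicate 5. Replicates 1, 3 and 4 lay inside the sham range of this ratio, replicate 2 lay above it at 2.11, and replicate 5 stood farthest out.

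**Figure D2:**
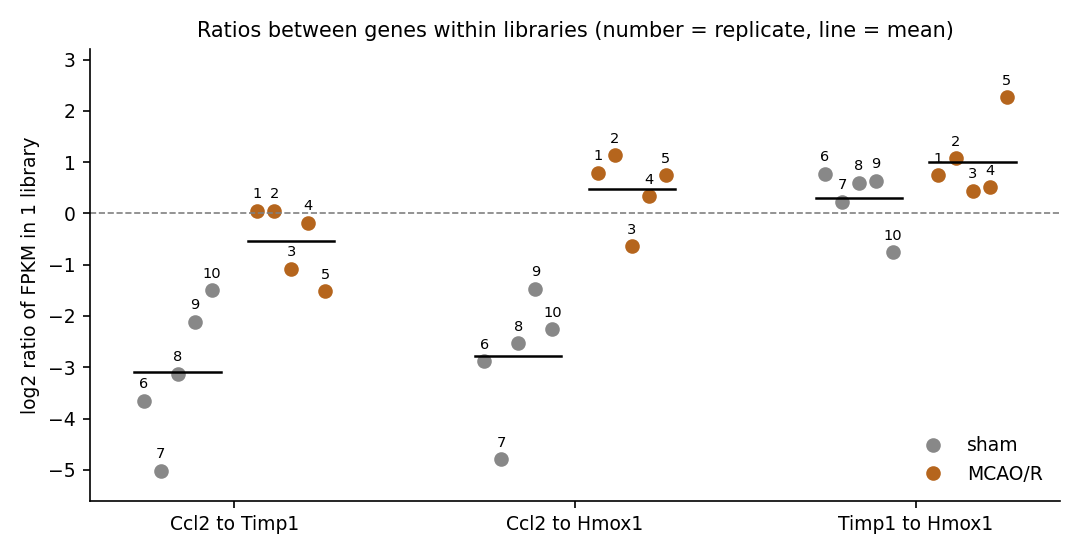
Log2 ratio of FPKM between each pair of genes within a library, with sham libraries in grey, MCAO/R libraries in brown, replicate numbers above the points and group means as lines. Ccl2 to Hmox1 lies above 0 in MCAO/R replicates 1, 2, 4 and 5 and below 0 in replicate 3, while Timp1 to Hmox1 is highest in replicate 5.

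Across the 5 MCAO/R libraries the 3 genes shared 1 feature, a low value in replicate 3. With 5 libraries, under the 6 that a correlation was taken to need here, no coefficient is given. Ordered from highest to lowest, the replicates ran 2, 1, 4, 5, 3 for Ccl2, then 5, 2, 1, 4, 3 for Timp1 and 4, 1, 5, 2, 3 for Hmox1. Replicate 3 was last in each, and the top place fell to a different replicate for each gene. The mean of the other 4 MCAO/R libraries was 9.39 times replicate 3 for Ccl2, 6.29 times for Timp1 and 3.61 times for Hmox1. Replicate 3 was still 64.0, 19.4 and 18.4 times the sham mean of the same genes.

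Leaving out replicate 3, the MCAO/R libraries were close together for Ccl2 and Hmox1 and not for Timp1. From lowest to highest of those 4 libraries the span was 1.30-fold for Ccl2, 1.44-fold for Hmox1 and 2.34-fold for Timp1. With replicate 3 included the spans were 10.5-fold, 4.44-fold and 10.9-fold. The SD of log2(FPKM + 1) over MCAO/R libraries was 1.43 for Ccl2, 1.24 for Timp1 and 0.84 for Hmox1, and without replicate 3 it was 0.19, 0.60 and 0.25. The variation that Ccl2 and Hmox1 had in common thus rested on 1 library.

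Ratios within a library show how much of the variation was held jointly. The log2 ratio of Ccl2 to Hmox1 had an SD of 0.68 over the 5 MCAO/R libraries, and 0.33 without replicate 3. That of Ccl2 to Timp1 had an SD of 0.72, and 0.76 without replicate 3. That of Timp1 to Hmox1 had an SD of 0.74, which was 0.29 without replicate 5. For each pair the SD over all 5 was smaller than the SD of log2(FPKM + 1) of either gene alone. Without replicate 3 this no longer held, since each pair's SD then exceeded that of both of its genes.

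**Figure D3:**
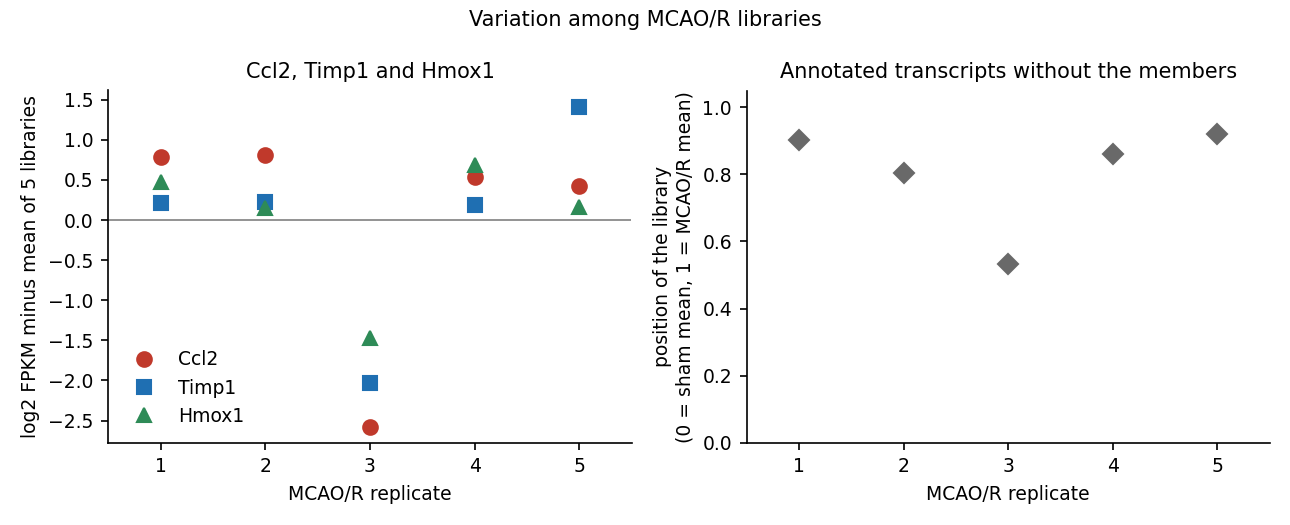
Left, log2 FPKM of each gene in MCAO/R replicates 1 to 5 minus its mean over these 5 libraries; right, position of the same libraries between the sham mean (0) and the MCAO/R mean (1) over annotated transcripts without the 3 genes. Replicate 3 is lowest in both, at -2.58 (Ccl2), -2.04 (Timp1) and -1.47 (Hmox1) on the left and 0.53 on the right.

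Replicate 3 was also set apart by other transcripts. Each library was given a position between the groups over the 10105 annotated transcripts less the 3 genes, where 0 is the sham mean and 1 the MCAO/R mean, both taken without that library. Replicate 3 lay at 0.53, the other MCAO/R libraries at 0.80 to 0.92 and sham libraries at 0.11 to 0.26. Since every sham library lay above 0 and every MCAO/R library below 1, 0.53 is to be read against these ranges. It is not a share of the response. Ccl2 alone placed replicate 3 at 0.57, Timp1 at 0.60 and Hmox1 at 0.67. By single genes the other MCAO/R libraries stood at 1.08 to 1.15 (Ccl2), 1.04 to 1.32 (Timp1) and 1.04 to 1.17 (Hmox1). The single-gene positions of replicate 3 are therefore not to be set directly against 0.53. Relative depth was estimated from the most frequent ratio of low FPKM values between libraries. For replicate 3 it was 0.983 of that of replicate 1, within the range of 0.878 to 1.11 over the 10 libraries. This estimate is rough: it rests on 23 of 1764 transcripts, with 15 and 12 near 1 log2 unit below and above. Replicate 3 was not tested for an effect of depth. Its annotated sum of 180179 FPKM was the lowest of the MCAO/R group, whose highest was 195539, and 7979 of its annotated transcripts had at least 1 FPKM, within the group's range of 7873 to 8116. The part of this shift of the whole library in the low values of the 3 genes was not tested.

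The low value in replicate 3 was common among transcripts that rose. Of the 633 other annotated transcripts called higher by 2-fold or more, 350 (55.3%) were lowest in replicate 3 among MCAO/R libraries, and 26.2% were lowest in replicate 2. For these 633 the median position of replicate 3 between the sham mean and the mean of the other 4 MCAO/R libraries was 0.69, with quartiles of 0.50 and 0.89. Ccl2 at 0.57, Timp1 at 0.60 and Hmox1 at 0.67 had 33.8%, 40.1% and 48.0% of them at or below. On the log2 scale the 3 genes lay between the quartiles of that set. Among the 15 other annotated transcripts called higher by 4 or more on the log2 scale, the quartiles were 0.62 and 0.85, so Ccl2 and Timp1 lay below the lower quartile and Hmox1 above it. Both sets were called with replicate 3 included, which bears on how many transcripts low in that library could enter them.

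**Figure D4:**
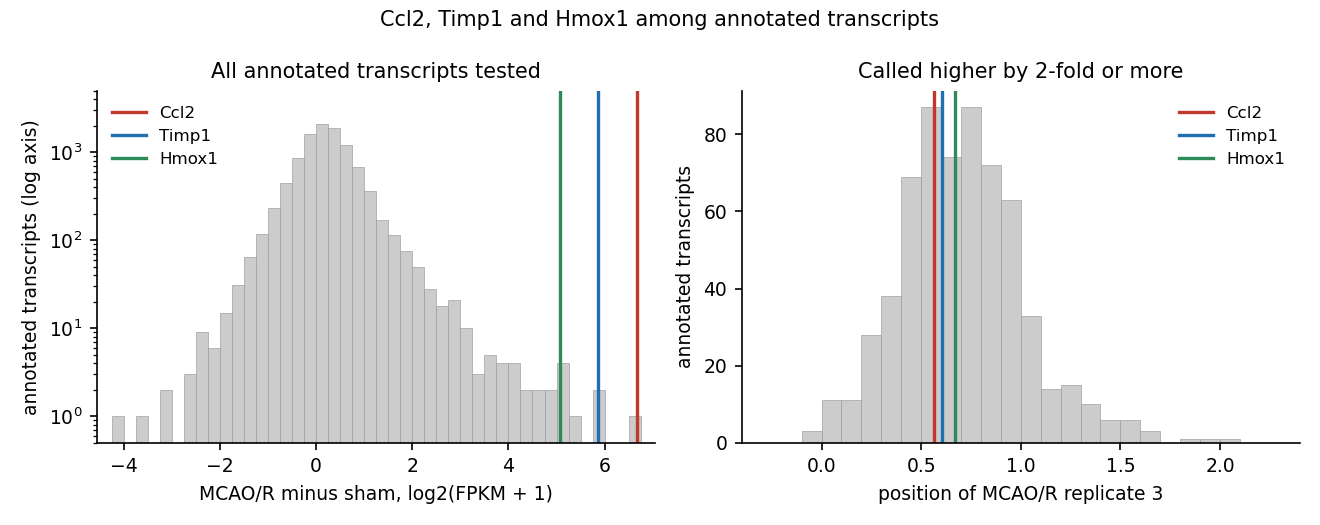
Left, log2 difference between MCAO/R and sham for 10105 annotated transcripts, with counts on a log axis; right, position of MCAO/R replicate 3 between the sham mean (0) and the mean of the other MCAO/R libraries (1) for 633 other annotated transcripts called higher by 2-fold or more. Coloured lines mark Ccl2, Timp1 and Hmox1, at the far right on the left (6.66, 5.87 and 5.08) and near the centre on the right (0.57, 0.60 and 0.67).

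Sham libraries varied in another way for each gene. Ccl2 spanned 10.4-fold in sham cortex, at values under 1 FPKM, while Timp1 spanned 2.71-fold and Hmox1 1.57-fold. Sham replicates ran 9, 10, 6, 8, 7 for Ccl2, then 6, 9, 7, 8, 10 for Timp1 and 10, 6, 9, 7, 8 for Hmox1, from highest to lowest. No sham library was highest for more than 1 of the 3 genes, and none was lowest for more than 1.

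Likeness of profile was measured as the root mean square difference over the 10 libraries between log2(FPKM + 1) values, each transcript centred on its sham mean. Timp1 lay 0.77 from Ccl2 and 0.77 from Hmox1, and Ccl2 and Hmox1 lay 1.21 apart. This measure is led by the size of the rise, on which the genes were chosen. On this scale 7 other annotated transcripts were nearer to Hmox1 than Timp1 was, and 18 were nearer than Ccl2 was. To Ccl2, 1 other transcript was nearer than Hmox1. No other annotated transcript was nearer to Timp1 than Ccl2 and Hmox1, or nearer to Ccl2 than Timp1. Both parts of this last statement were lost with 0.1 added in place of 1. Timp1 then lay 1.65 from Ccl2 and 0.79 from Hmox1, with 36 other transcripts nearer to Timp1 than Ccl2 was, 5 nearer than Hmox1 was, and 6 nearer to Ccl2 than Timp1 was. With 1 added, the nearest other transcript to Timp1 was ENSRNOT00000001916, at 0.78. It stood at 70.95, 79.8, 7.97, 52.0 and 76.0 FPKM in MCAO/R replicates 1 to 5 and between 0.162 and 1.02 FPKM in sham libraries. The nearest other transcript to Ccl2, at 1.17, and to Hmox1, at 0.39, was ENSRNOT00000000256. It stood at 62.7, 74.9, 8.45, 57.3 and 42.4 FPKM after MCAO/R, between 0.0804 and 0.407 FPKM in 4 sham libraries, and was listed at 0 in sham replicate 9. Both transcripts were lowest in MCAO/R replicate 3, as the 3 genes were. The files pair neither with a gene name.

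Over the 5 MCAO/R libraries alone, each transcript centred on its mean there, the 3 genes were not each other's nearest. Timp1 lay 0.64 from Ccl2, and 77 other annotated transcripts, of 10104 compared, were nearer to Ccl2 than that. Hmox1 lay 0.60 from Ccl2, with 70 transcripts nearer to Ccl2. From Timp1, 93 transcripts were nearer than Ccl2 and 121 nearer than Hmox1. From Hmox1, 947 transcripts were nearer than Ccl2 and 1769 nearer than Timp1. The median distance of the other annotated transcripts was 1.32 from Ccl2, 1.15 from Timp1 and 0.82 from Hmox1.

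Other genes of these pathways, such as further chemokines and their receptors, metalloproteinases and Nrf2 targets, and markers of cortical and invading cells could not be counted, because 0 of the 26001 annotated identifiers matched a symbol in the reference table. For the same reason the cortical label was not checked against markers.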

How the data were processed

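Ribosome-depleted total RNA of 10 rat cortex libraries (5 MCAO/R, 5 sham) was analysed. The authors deposited FPKM in 1 table of mRNA (364224 rows) and 1 of lncRNA (31183 rows), with no read totals. The submitters' processing notes name the build Rnor 5.0, and the sources used here do not name the aligner, assembler or quantification tool. Columns were matched to samples by the code in each title. No pair of libraries held identical values.

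Annotated transcripts were kept as deposited and assembled isoforms summed to their locus. Those averaging at least 0.5 FPKM over the 10 libraries were fitted on log2(FPKM + 1) with limma 3.58.1 in R 4.3.3 (group only, intensity trend, Benjamini-Hochberg adjustment over 25038 features, threshold 0.05), which gave the SE of each log2 difference; the procedure was tested on simulated data. Fold changes on this scale understate the change of low features. Absolute depth is unknown. Relative depth came from the most frequent ratio, within a window of 0.002 on the log2 scale, of annotated values under 0.1 FPKM to those of MCAO/R replicate 1. It rests on 12 to 23 of 1361 to 1764 transcripts compared.

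The genes, lists and measures were chosen with earlier results of these data known. The rule for named transcripts took the 3 genes and the nearest other annotated transcript to Ccl2 and to Timp1. Gene lists and cell markers set out for chemokines, proteases, haem metabolism and brain cell types were not used, as no identifier matched. Alternatives covered the pseudocount, scaling, filter, variance model, isoform sums and each library left out. The lncRNA table entered only through library sums.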

Additional observations from a re-analysis of the deposited data

Results flagged for a closer look

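In 26 groups of 5 values, a single library far from the rest of its group was looked for. Chance marks about 1 group in 20, and 3 were found, all in MCAO/R replicate 3 and not independent of each other. Ccl2 stood at 22.3 FPKM in that library, where the next lowest MCAO/R library held 179. On the scale of log2(FPKM + 1) Ccl2 was at 4.54 there, with the next at 7.50. Hmox1 was at 5.16 on the same log2 scale, with the next at 6.75. Timp1 was also lowest in replicate 3, and its gap to the next library did not reach the mark because replicate 5 widened the range.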

How the results depend on the processing

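All 3 genes were called higher in each of 18 settings of the limma fit, the first of them as reported. Since they were chosen on this contrast, nothing is read from these calls. Features called higher ran from 910 without a filter, where all 301235 features were tested, to 3987 without MCAO/R replicate 3. As reported they were 3590, or 14.3% of 25038. The number of features tested differs between settings, so the counts are not to be compared as shares. The log2 difference of Ccl2 was 8.40 on log2(FPKM + 0.1). It ran from 6.46 to 7.30 with any 1 library left out, the highest without MCAO/R replicate 3. Over all alternatives Timp1 ran from 5.51 to 6.37 and Hmox1 from 4.89 to 5.61, each within the pooled SD of its libraries. Scaling moved the median of all features from 0.11 to between -0.08 and 0.01 and left Ccl2 between 6.51 and 6.58. Higher calls were 73.4% of calls as deposited, 58.4% with equal sums, 47.5% after quantile normalization and 43.1% when scaled by annotated transcripts. MCAO/R replicate 3 stayed lowest for all 3 genes under these 3 scalings. They were too small to change this order: the log2 gap of replicate 3 for Hmox1 was 1.84 as deposited and 1.81 to 1.85 under them. Features called numbered 4890, against 1024 without a filter, 2591 with single deposited rows and 3172 to 5704 with 1 library left out (3172 without MCAO/R replicate 1, 3222 without sham replicate 9). With 0.1 added, the nearest other transcript to Ccl2 and to Hmox1 was a different one, while that to Timp1 was the same, at 0.42 in place of 0.78. Comparisons of the spread without single libraries, and of replicate 3 under other scalings, were added after seeing the data. No paired analysis was possible because the labels link no MCAO/R library to a sham library.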
